A study of Mus musculus with 66 samples.

Results

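Oocytes carrying the Foxo3dNES transgene (Tg) were compared with wild-type (WT) oocytes after 21 days of culture, in the libraries whose labels carry no word on oxygen. The comparison takes 4 of the 66 libraries of the series, 2 Foxo3dNES Tg and 2 WT, picked by their labelled genotype, day and lack of an oxygen label, and it covers 14066 of the 24062 genes in the table, those with a mean of at least 1 RPM (reads per 1000000 reads of a library) in either group. The study followed mouse germ cells and oocytes in ovaries and in culture by poly(A) RNA sequencing, in 24 groups, and its title links hypoxia, Foxo3 and a dormant state of oocytes. All 4 libraries came from embryonic stem cells of a C57BL/6 X 129/SvJ background. Those cells were turned into primordial germ cell-like cells (PGCLCs) carrying a Blimp1-mVenus reporter, and each reconstituted ovary (rOvary) joined 5000 of the mVenus-positive cells with 75000 frozen and thawed gonadal somatic cells of E12.5 embryos. Every rOvary, Tg and WT alike, received 10 µM of the Rock inhibitor Y-27632 for the first 2 days. The Foxo3dNES name points to a FOXO3 without its nuclear export signal, which the labels do not spell out. The promoter that drives the transgene, the number of clones and the state of the endogenous Foxo3 alleles are not given in the sources used here. Other D21 libraries of both genotypes are labelled normoxia (air with added CO2) or hypoxia (5% O2), and the comparison asks what the transgene goes with where no oxygen label is given.

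FOXO3 is a forkhead transcription factor that binds DNA when it is in the nucleus and is carried out of it after AKT, a kinase of the PI3K pathway, phosphorylates it. In the ovary, oocytes of primordial follicles hold FOXO3 in the nucleus, and its export goes with the start of oocyte growth. Mice without Foxo3 activate their primordial follicles all at once, and a FOXO3 that stays in the nucleus holds oocytes small.

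The 4 libraries were shallow for the series. The Foxo3dNES Tg libraries held 7307125 and 8719895 reads and the WT libraries 4843643 and 7202954, while the other D21 libraries held 15915800 to 21261797. A count of 3 reads corresponded to 0.344 and 0.411 RPM in the Foxo3dNES Tg libraries and to 0.416 and 0.619 RPM in the WT libraries. On log2(RPM + 1) the Foxo3dNES Tg libraries correlated with each other at r = 0.987 and the WT libraries at r = 0.956, across genes. WT library 2 was closer to the first WT normoxia library (r = 0.988) than to WT library 1, and the second WT normoxia library, which shares the fit, stood apart from the Foxo3dNES Tg libraries (r = 0.912 and 0.911). No library repeated another within sampling noise. Nothing in the labels ties replicates to separate cultures, so p-values measure only the spread between libraries. The limma fit takes that spread from all 12 D21 libraries and not from these 4 alone. Replicates labelled hypoxia, which share the fit, correlated at r = 0.995 in each genotype.

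The labelled cell type was borne out by oocyte markers in every library. Ddx4, a germ cell RNA helicase, stood at 265 and 230 RPM in Foxo3dNES Tg libraries and at 314 and 275 RPM in WT libraries, and Dazl, a germ cell RNA-binding protein, at 124 and 122 RPM against 129 and 125 RPM. RNA of granulosa cells, the somatic cells around the oocyte, was present too. Foxl2, a granulosa transcription factor, had 12.6 and 21.1 RPM in Foxo3dNES Tg libraries and 6.19 and 7.08 RPM in WT libraries, and the 24 granulosa markers summed to 667 and 940 RPM against 351 and 361 RPM. The blood marker Hbb-bs was at 0 in all 4 libraries, and the leukocyte marker Ptprc had 0.274 and 0 RPM in Foxo3dNES Tg libraries and 0 in both WT libraries. These are pools of cells, in which fewer cells of a type and less of a transcript per cell cannot be told apart.

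Foxo3 (chr10:42181845-42276695, GRCm38.p6) was higher with the transgene. It had 318 and 267 RPM in Foxo3dNES Tg libraries, against 57.0 and 89.1 RPM in WT libraries. The groups did not overlap, and the log2 difference was 2.02 (SE 0.29, limma adjusted p = 0.0275). Reads of the transgene and of the endogenous gene cannot be told apart in a count per gene. The call was lost when 1 of 3 libraries was left out: limma fits without Foxo3dNES Tg library 1, Foxo3dNES Tg library 2 or WT library 1 gave adjusted p = 0.0966, 0.137 and 0.0594, at log2 differences of 1.89, 2.14 and 1.70. With the same oxygen word on both sides, the log2 difference of Foxo3 was 2.34 in normoxia and 1.53 in hypoxia. In ovarian oocytes of the series, which enter no D21 comparison, mean Foxo3 was 188 RPM for small and 95.0 RPM for large ones at P4, and 195 and 90.9 RPM at P6.

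**Figure D1:**
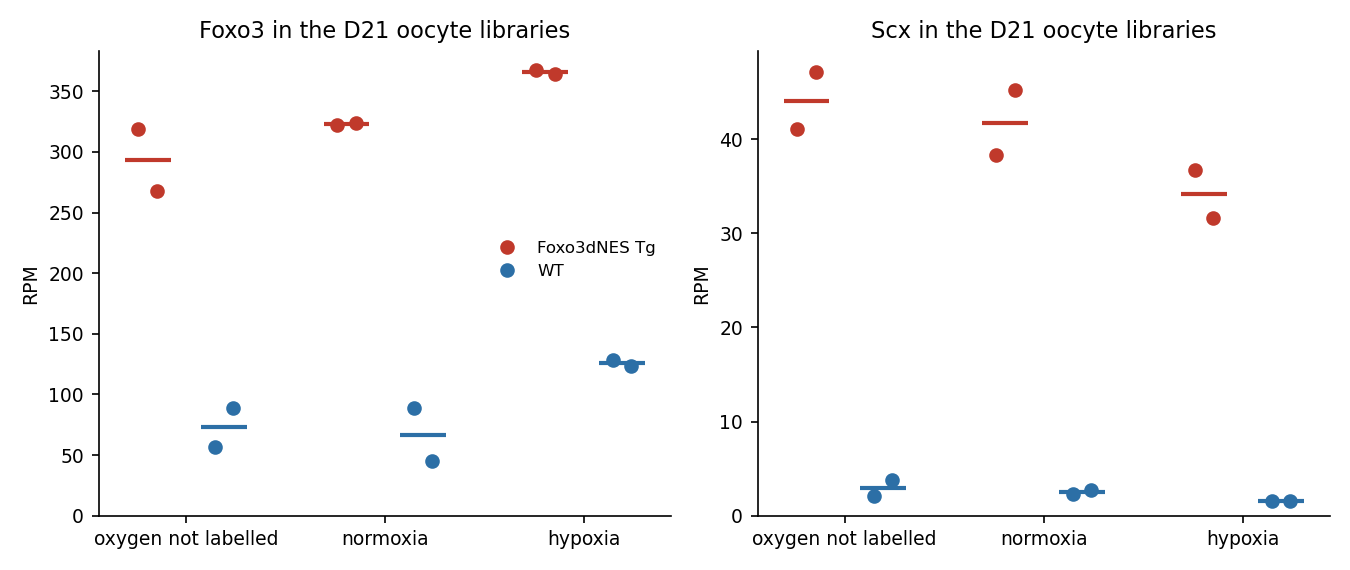
Foxo3 and Scx in the 12 D21 libraries, in RPM, grouped by oxygen label; each point is 1 library and each horizontal bar the mean of 2. Foxo3dNES Tg libraries (red) lie above WT libraries (blue) for both genes under every label, with Scx at 31.6 RPM or more in Foxo3dNES Tg libraries and at 3.75 RPM or less in WT libraries.

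Scx (chr15:76457411-76459468), which encodes scleraxis, a basic helix-loop-helix transcription factor of tendon progenitors, showed the largest log2 difference of all genes called. It had 41.1 and 47.1 RPM in Foxo3dNES Tg libraries and 2.06 and 3.75 RPM in WT libraries. The log2 difference was 3.56 (SE 0.23, limma adjusted p = 0.000338). It was called by edgeR (adjusted p = 0.000889) and by DESeq2, and it was the only gene called in every limma fit that left out 1 library. The log2 differences in normoxia (3.61) and in hypoxia (3.79) were close to it, and there Scx was the only gene called of those tested. Scx overlaps Bop1, a ribosome assembly gene on the other strand, which had 99.8 and 96.6 RPM in Foxo3dNES Tg libraries and 98.9 and 107 RPM in WT libraries. Whether the counting used strand is not given in the sources used here.

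Across the table, many more genes were higher with the transgene than lower. Of the 14066 genes, limma called 1004 (7.14%) at an adjusted p under 0.05, with 917 (6.52%) higher and 87 (0.619%) lower in Foxo3dNES Tg oocytes. A log2 difference of 1 or more in size was reached by 678 of the called genes (4.82%), 649 of them higher and 29 lower. Both Foxo3dNES Tg libraries lay above both WT libraries for 5841 genes (41.5%) and below both for 1895 (13.5%). The median log2 difference of all genes was 0.22, and 67.6% of genes lay above 0. With RPM rescaled by median-of-ratios size factors that median was 0.06, and the calls were 745 higher and 233 lower. The genes called higher were mostly low in WT oocytes, with a median of 19.9 RPM in Foxo3dNES Tg and 7.09 RPM in WT oocytes. Those called lower had medians of 38.9 RPM in Foxo3dNES Tg and 75.1 RPM in WT oocytes.

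The number of calls rested on single libraries and on the test. Limma called 3 genes without Foxo3dNES Tg library 1, 2 without Foxo3dNES Tg library 2, 2 without WT library 1 and 3206 without WT library 2, of which 932 were among the 1004. It called 0 genes on the 4 libraries alone (2771 at an unadjusted p under 0.05), edgeR called 1 (0.00711%), which was Scx, with 3605 at an unadjusted p under 0.05, and DESeq2 called 1043 higher (7.42%) and 573 lower (4.07%). All 1004 genes had the same sign in edgeR, and 999 had an unadjusted edgeR p under 0.05. Every gene other than Scx that is said below to have risen or fallen was therefore called in the 12-library limma fit and lost its call without at least 1 of Foxo3dNES Tg library 1, Foxo3dNES Tg library 2 and WT library 1.

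**Figure D2:**
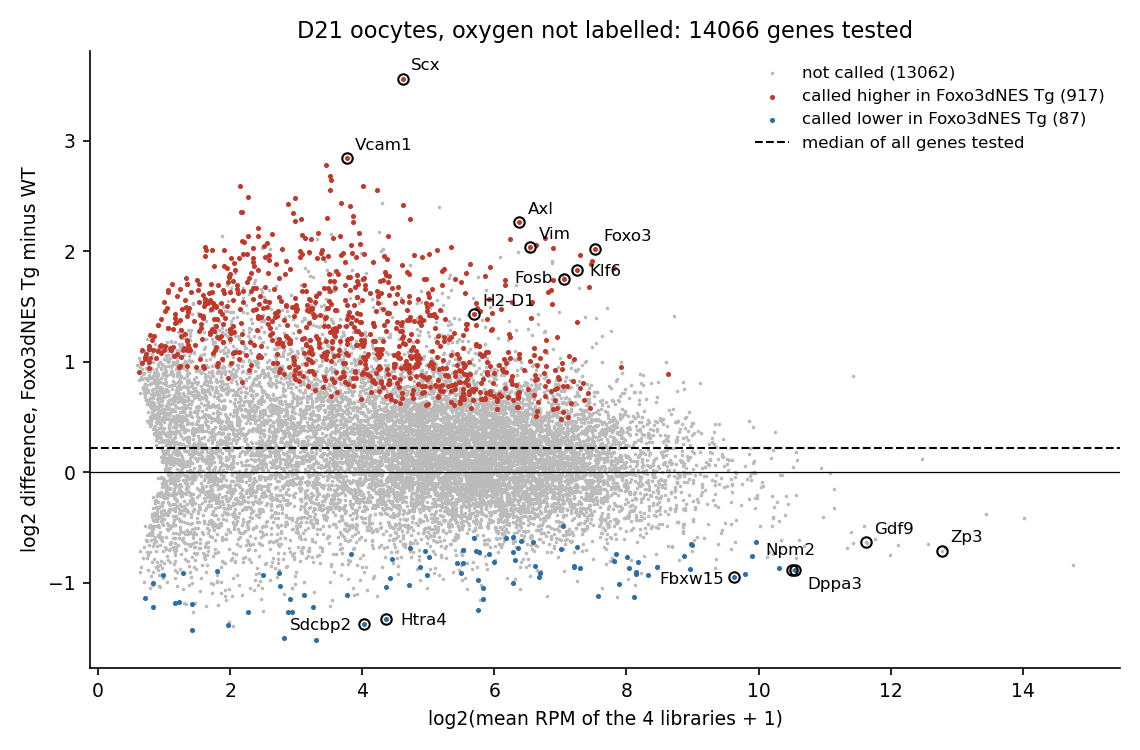
Log2 difference (Foxo3dNES Tg minus WT) against log2 of the mean RPM of the 4 libraries plus 1, for the 14066 genes tested. Red points are the 917 genes called higher and blue points the 87 called lower by limma, the dashed line is the median of all genes (0.22), and ringed points are named; Gdf9, Zp3 and Dppa3 are ringed and were not called.

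Transcripts that oocytes store while they grow were lower with the transgene, with few calls. Of 44 genes of oocyte growth and maternal stores, 43 had a log2 difference below 0. Both Foxo3dNES Tg libraries lay below both WT libraries for 36, and for 13.5% of all genes. Limma called 2 lower and 0 higher, beside 0.619% of all genes called lower. The median log2 difference was -0.67, beside 0.22 for all genes, and the 44 genes summed to 64278 and 63099 RPM in Foxo3dNES Tg libraries and to 102219 and 87765 RPM in WT libraries. Npm2, a histone chaperone of the egg, had 1052 and 1038 RPM in Foxo3dNES Tg libraries, against 2195 and 1690 RPM in WT libraries (log2 difference -0.88, SE 0.23, limma adjusted p = 0.0495). H1foo, the oocyte linker histone, had 672 and 749 RPM in Foxo3dNES Tg libraries, against 1117 and 1294 RPM in WT libraries (log2 difference -0.76, SE 0.20, limma adjusted p = 0.0489). Both genes thus stood lower in each Foxo3dNES Tg library than in either WT library, by margins close to the threshold of the test.

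Other genes of this group had differences of like size without a call. Gdf9, the growth factor that oocytes send to granulosa cells, had 2340 and 2614 RPM in Foxo3dNES Tg libraries and 3552 and 4129 RPM in WT libraries (log2 difference -0.63, limma adjusted p = 0.0829). Nlrp5, a subunit of the subcortical maternal complex, had 3138 and 2939 RPM against 5415 and 4780 RPM (-0.74, limma adjusted p = 0.0561). Among genes of the egg coat, Zp3 had 5222 and 5215 RPM in Foxo3dNES Tg libraries and 10962 and 6643 RPM in WT libraries (-0.71, limma adjusted p = 0.128), and Zp1 had 1997 and 1961 RPM against 3567 and 2831 RPM (-0.68, limma adjusted p = 0.0682). Bmp15, the partner of Gdf9, overlapped between the groups at 142 and 185 RPM in Foxo3dNES Tg libraries and 139 and 375 RPM in WT libraries. DESeq2 called 29 of the 44 genes lower. Without WT library 2 limma called 7 lower and 1 higher, and it called 0 without any of the other 3 libraries. Several members belong to clustered families of near-identical copies (Oas1, Nlrp, Fbxw, Oosp and Omt2 genes), for which reads may have been split.

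The 12 largest falls above 20 RPM were found outside that list, and all 12 belong to the large-oocyte list described next. Sdcbp2, which encodes syntenin-2, had 8.90 and 7.34 RPM in Foxo3dNES Tg libraries, against 25.6 and 19.7 RPM in WT libraries (log2 difference -1.37, SE 0.28, limma adjusted p = 0.0336). Htra4, a secreted serine protease, had 7.53 and 14.3 RPM against 33.0 and 23.05 RPM (-1.32). Grm2, a metabotropic glutamate receptor, had 30.0 and 39.5 RPM against 77.6 and 76.9 RPM (-1.14). In these, as in every gene called, the groups did not overlap. Rfpl4, a RING finger gene of oocytes, had 114 and 124 RPM in Foxo3dNES Tg libraries and 243 and 275 RPM in WT libraries (-1.11), and Knstrn, a kinetochore and spindle protein, 61.6 and 77.3 RPM against 141 and 126 RPM (-0.94). The F-box genes Fbxw26 (-1.13) and Fbxw15 (-0.95) fell too and are near-identical to neighbours. The rest of the 12 were Zcchc10 (-1.05), Pin1rt1 (-1.03), Speer5-ps1 (-1.01), Myot (-0.97) and Zfp92 (-0.93).

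Genes of small and of large ovarian oocytes moved apart. A small-oocyte list of 3054 genes and a large-oocyte list of 1484 genes were taken from P4 and P6 ovarian oocytes, as genes called at both ages with a log2 difference of 1 or more. Of the 2972 small-oocyte genes tested, 492 rose (16.6%, beside 6.52% of all genes) and 1 fell, with a median log2 difference of 0.53. Of the 1442 large-oocyte genes tested, 67 fell (4.65%, beside 0.619% of all genes) and 4 rose, with a median of -0.28. Both Foxo3dNES Tg libraries lay below both WT libraries for 602 of these genes, and for 13.5% of all genes. These values moved with 1 library: without WT library 2 the large-oocyte list had 129 genes lower, 80 higher and a median of -0.03, and the small-oocyte list 966 higher and 30 lower, while without WT library 1 the large-oocyte median was -0.57, with 0 calls. Of all genes called higher, 53.7% were on the small-oocyte list, which holds 21.1% of the genes tested, and of all called lower 77.0% were on the large-oocyte list, which holds 10.3%. The small-oocyte genes summed to 181376 and 188380 RPM in Foxo3dNES Tg libraries and to 157939 and 127829 RPM in WT libraries. The large-oocyte genes summed to 175782 and 175290 RPM in Foxo3dNES Tg libraries and to 240685 and 262464 RPM in WT libraries.

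Small-oocyte genes with large rises were mostly low in WT oocytes. Elmsan1, a subunit of histone deacetylase complexes, had 40.2 and 37.3 RPM in Foxo3dNES Tg libraries and 2.68 and 14.0 RPM in WT libraries (log2 difference 2.42, limma adjusted p = 0.0336). Tns1, an actin-binding protein of focal adhesions, had 20.9 and 16.2 RPM against 0.826 and 4.30 RPM (2.64, limma adjusted p = 0.0323). Soga1 had 20.5 and 16.4 RPM against 1.03 and 3.47 RPM (2.68, limma adjusted p = 0.0275), and Tbc1d4, a Rab GTPase-activating protein that AKT phosphorylates, averaged 11.3 RPM against 1.42 RPM (2.42). WT library 1 was the lower WT library for all 4 genes. Gbp7 and Tmtc2 rose against the direction of the large-oocyte list they are on, at log2 differences of 1.42 and 1.44.

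**Figure D3:**
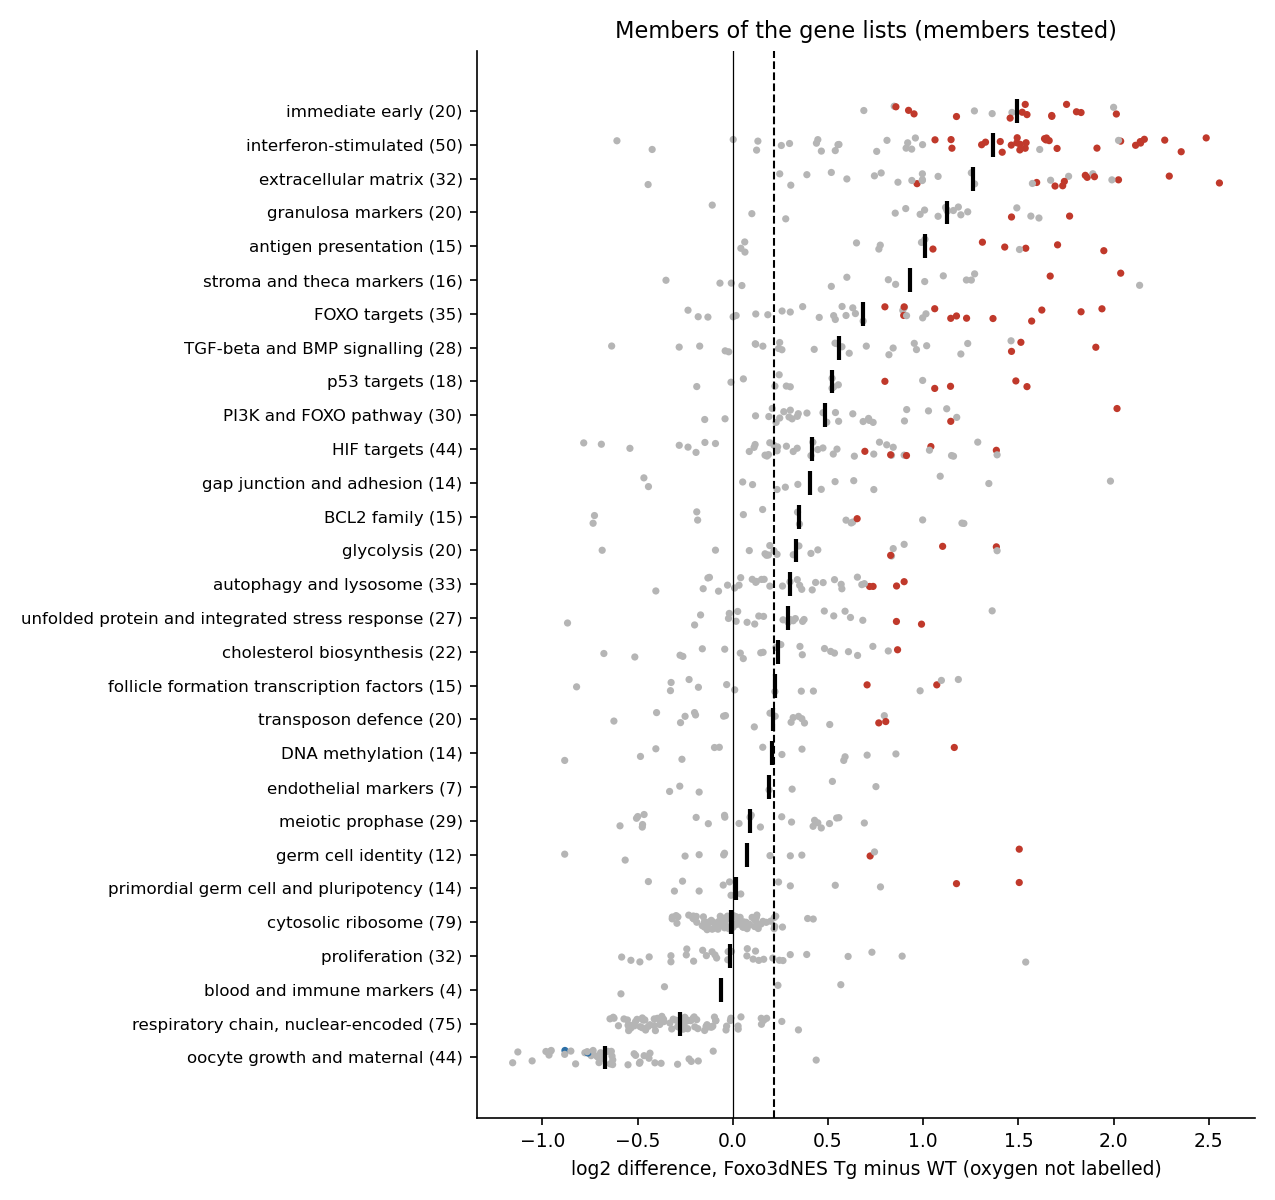
Log2 differences (Foxo3dNES Tg minus WT) of the tested members of 29 gene lists, with the number tested in brackets; red points were called higher and blue points lower by limma, the black tick is each list's median and the dashed line the median of all genes (0.22). Immediate early, interferon-stimulated and extracellular matrix genes lie farthest to the right, with medians of 1.49, 1.37 and 1.26, and oocyte growth genes farthest to the left at -0.67.

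Regulators of follicle formation and germ cell identity had small medians as groups, with members on both sides of 0. Of 15 transcription factors and related genes of follicle formation, limma called 2 higher and 0 lower, beside 6.52% of all genes called higher. Their median was 0.22, as for all genes, and DESeq2 called 2 higher and 2 lower. Both Foxo3dNES Tg libraries lay above both WT libraries for 8 and below both for 4, beside 41.5% and 13.5% of all genes. Sohlh2, a helix-loop-helix factor of primordial oocytes, had 58.7 and 61.0 RPM in Foxo3dNES Tg libraries and 35.7 and 36.9 RPM in WT libraries (log2 difference 0.71, limma adjusted p = 0.0336). Taf7l, a germ cell form of a general transcription factor subunit, had 2.05 and 2.18 RPM against 0.413 and 0.555 RPM (1.07). Nobox, a homeobox factor of early oocytes, had 1238 and 1205 RPM in Foxo3dNES Tg libraries and 1086 and 1010 RPM in WT libraries and was not called (log2 difference 0.22), and neither were Figla, Lhx8 and Sohlh1. Of 12 germ cell identity genes 2 rose (list median 0.08), Tex14, a protein of germ cell intercellular bridges (0.72), and Dnd1, an RNA-binding protein (1.5). Dnd1 was low, with 4.38 and 4.93 RPM against 0.413 and 1.80 RPM. DESeq2 called 2 of the 12 higher and 1 lower. Of 14 genes of primordial germ cells and pluripotency 2 rose and 0 fell (median 0.02), Dnd1 and Klf4, with 45.6 and 49.8 RPM in Foxo3dNES Tg libraries and 18.0 and 23.5 RPM in WT libraries (1.17). Of 29 meiotic prophase genes limma called 0 in either direction. DESeq2 called 1 of them lower and 0 higher, and of the 14 primordial germ cell and pluripotency genes 2 higher and 1 lower.

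Immediate early genes are transcribed within minutes of a stimulus, without new protein synthesis, and their median was the highest of the 29 lists on log2(RPM + 1). With edgeR the medians of the interferon (1.63) and matrix (1.44) lists were above it (1.38). Of 20 tested, 14 rose and 0 fell, where 6.52% of all genes were called higher, and the median log2 difference was 1.49. Both Foxo3dNES Tg libraries lay above both WT libraries for all 20, and for 41.5% of all genes. Together they summed to 2014 and 2339 RPM in Foxo3dNES Tg libraries and to 723 and 883 RPM in WT libraries. Klf6, a zinc-finger factor, had 217 and 256 RPM in Foxo3dNES Tg libraries, against 58.4 and 73.7 RPM in WT libraries (log2 difference 1.83, SE 0.45, limma adjusted p = 0.0418). Fosb, a subunit of the AP-1 factor, had 192 and 213 RPM against 44.8 and 78.4 RPM (1.75, SE 0.35, limma adjusted p = 0.0336). Myc had 66.1 and 80.4 RPM against 20.03 and 20.3 RPM (1.81, SE 0.40, limma adjusted p = 0.0367). Dusp6, a phosphatase of ERK, had 17.7 and 13.9 RPM against 2.48 and 3.89 RPM (2.01, SE 0.48, limma adjusted p = 0.0404).

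Other AP-1 and early growth genes followed the same direction within the list. Jun had 245 and 280 RPM in Foxo3dNES Tg libraries and 66.7 and 99.0 RPM in WT libraries (log2 difference 1.68), and Egr1 161 and 180 RPM against 45.4 and 75.9 RPM (1.52), and both rose. The members that missed the threshold were Fos, Egr2, Egr3, Nr4a1, Nr4a2 and Atf3, with log2 differences of 0.69 to 2.00. Under the normoxia and hypoxia labels the medians of the list were 0.29 and 0.39, beside 0.16 and 0.04 for all genes.

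Interferon-stimulated genes, which cells switch on after interferon or sensed nucleic acid, stood higher with the transgene, from low levels. This list and the 2 that follow it here, of antigen presentation and extracellular matrix, were drawn up after leading genes of the comparison had been seen, so their counts are descriptions. Of 50 tested, 28 rose and 0 fell, beside 6.52% of all genes called higher, and the median log2 difference was 1.37. Both Foxo3dNES Tg libraries lay above both WT libraries for 39, and for 41.5% of all genes. Ifih1, the RNA sensor MDA5, had 5.61 and 8.83 RPM in Foxo3dNES Tg libraries, against 0.619 and 0.278 RPM in WT libraries (log2 difference 2.49, SE 0.44, limma adjusted p = 0.0320). Helz2, a helicase, had 23.4 and 22.5 RPM against 5.78 and 2.64 RPM (2.27, SE 0.30, limma adjusted p = 0.0275). Rsad2, the antiviral enzyme viperin, had 5.20 and 7.91 RPM against 0 and 1.11 RPM (2.36, SE 0.38, limma adjusted p = 0.0278). Gbp2, an interferon-induced GTPase, had 11.5 and 18.46 RPM against 5.16 and 0.972 RPM (2.16, SE 0.49, limma adjusted p = 0.0376). WT values of Ifih1 and Rsad2 lay within a few reads of 0, and the Gbp and Irgm genes have close copies. With WT means under 1 RPM, Ifih1 and Rsad2 passed the filter only through the Foxo3dNES Tg group, which largely fixed their direction. Such members add to the 28, to the 39 and to the median, and their number was not counted.

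Not all of the list moved, and DESeq2 called 19 of the 50 higher and 1 lower. Oas3 had 33.5 and 24.9 RPM in Foxo3dNES Tg libraries and 46.0 and 43.2 RPM in WT libraries (log2 difference -0.61), and Irf1, a transcription factor, overlapped at 116 and 115 RPM against 73.3 and 120 RPM. Under the normoxia and hypoxia labels the medians of the list were 0.04 and 0.03, beside 0.16 and 0.04 for all genes. Only 31 members passed the filter in normoxia and 22 in hypoxia, against 50 here, so the 3 medians are of differing sets of genes.

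Promoters are shown for 6 of the genes that rose, to display an element that a minority of the list holds, and they were picked for holding it. The interferon element was searched as GAAANNGAAA on either strand, matches being allowed to overlap, in the 250 bases before each RefSeq start (GRCm38.p6). It was found in 15 of the 40 tested list members with a promoter entry (37.5%) and in 821 of 27025 promoters in all (3.04%). Capitals mark the matches, read 5′ to 3′ along the gene's strand, and TTTCNNTTTC is the same element on the other strand.
Isg15, chr4:156200825-156200946, minus strand: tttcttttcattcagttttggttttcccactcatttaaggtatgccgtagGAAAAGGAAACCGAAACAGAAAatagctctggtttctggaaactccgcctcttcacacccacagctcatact
Ifit1, chr19:34640735-34640863, plus strand: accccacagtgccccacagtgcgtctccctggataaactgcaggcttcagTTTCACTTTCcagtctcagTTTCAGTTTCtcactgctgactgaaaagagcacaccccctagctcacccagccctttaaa
Ifit3, chr19:34583323-34583466, plus strand: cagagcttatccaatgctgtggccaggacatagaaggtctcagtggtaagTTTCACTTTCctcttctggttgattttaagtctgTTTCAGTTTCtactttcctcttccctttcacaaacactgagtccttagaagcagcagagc
Rsad2, chr12:26456513-26456622, minus strand: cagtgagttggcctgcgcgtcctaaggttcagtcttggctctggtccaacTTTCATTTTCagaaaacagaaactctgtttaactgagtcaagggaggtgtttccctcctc
Gbp3, chr3:142559949-142560043, plus strand: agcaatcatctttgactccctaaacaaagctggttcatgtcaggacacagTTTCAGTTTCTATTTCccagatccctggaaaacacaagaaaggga
Irgm1, chr11:48871421-48871500, minus strand: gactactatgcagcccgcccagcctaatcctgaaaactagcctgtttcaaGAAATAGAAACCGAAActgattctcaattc
The nearest matches ended between 14 and 112 bases before the start. A match is a description of these letters and not evidence of binding. Of these 6 genes, Isg15 had 4.65 and 3.21 RPM in Foxo3dNES Tg libraries and 0.413 and 0 RPM in WT libraries, and Ifit3 had 2.46 and 1.83 RPM against 0 in both WT libraries. Ifit1 had 4.93 and 3.67 RPM against 0.619 and 1.25 RPM, Gbp3 15.9 and 20.4 RPM against 3.30 and 3.47 RPM, and Irgm1 14.8 and 24.8 RPM against 4.54 and 2.78 RPM.

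Antigen presentation genes, which load peptides on MHC class I, rose in part. Of 15 tested, 6 rose and 0 fell, beside 6.52% of all genes called higher, with a median log2 difference of 1.01. Tap1, a subunit of the peptide transporter, had 8.35 and 16.4 RPM in Foxo3dNES Tg libraries and 2.89 and 1.80 RPM in WT libraries (log2 difference 1.95, limma adjusted p = 0.0278), and Nlrc5, the regulator of class I genes, had 2.19 and 4.70 RPM against 0.206 and 0.416 RPM (1.71). Of the class I heavy chains, H2-D1 had 54.2 and 96.0 RPM in Foxo3dNES Tg libraries and 26.8 and 25.5 RPM in WT libraries (1.43, limma adjusted p = 0.0336) and H2-Q4 30.4 and 46.1 RPM against 12.4 and 12.1 RPM (1.54). H2-K1 overlapped at 490 and 470 RPM in Foxo3dNES Tg libraries and 549 and 395 RPM in WT libraries. The light chain B2m had 57.6 and 101 RPM against 67.3 and 34.6 RPM. Class I genes are close copies of one another and their counts are uncertain.

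Matrix and cell adhesion genes were among the largest rises. Of 32 extracellular matrix genes tested, 11 rose and 0 fell, beside 6.52% of all genes called higher, with a median log2 difference of 1.26. Fbn1, the microfibril protein fibrillin-1, had 21.08 and 39.8 RPM in Foxo3dNES Tg libraries and 2.06 and 7.497 RPM in WT libraries (log2 difference 2.56, SE 0.55, limma adjusted p = 0.0354). Col4a1, a chain of the basement membrane collagen, had 191 and 185 RPM against 35.5 and 57.8 RPM (2.03, SE 0.46, limma adjusted p = 0.0382), and Col5a2 14.4 and 11.01 RPM against 0.619 and 3.75 RPM (2.29). Mmp14, a membrane metalloprotease, had 24.2 and 29.9 RPM against 4.75 and 8.75 RPM (1.90). Mmp2, a secreted metalloprotease, did not follow, with 10.8 and 14.6 RPM against 15.9 and 19.2 RPM (-0.44).

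Outside that list, Vcam1, an adhesion receptor, had 27.4 and 17.5 RPM in Foxo3dNES Tg libraries and 0.826 and 4.58 RPM in WT libraries (log2 difference 2.85, SE 0.60, limma adjusted p = 0.0340). Icam1, another adhesion receptor, had 16.8 and 23.9 RPM against 1.65 and 4.72 RPM (2.43). Axl, a receptor tyrosine kinase, had 137 and 132 RPM against 17.8 and 41.5 RPM (2.26, SE 0.58, limma adjusted p = 0.0454). It was the most abundant of the 12 largest rises above 20 RPM, predicted genes passed over. The others among these 12 were Myof (2.59), Hspa1a (2.41), Lphn2 (2.32), Cald1 (2.29) and Col4a5 (2.17), beside Scx, Fbn1, Icam1, Elmsan1 and Helz2. Hspa1a, the inducible HSP70, has a near-identical neighbour.

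Summed markers of granulosa and stromal cells were higher with the transgene too, with few calls. Of 20 granulosa markers tested, 2 rose and 0 fell, not far from the 6.52% of all genes called higher. The median log2 difference was 1.13, beside 0.22 for all genes. Both Foxo3dNES Tg libraries lay above both WT libraries for 15, and for 41.5% of all genes. Wnt4, a ligand of pregranulosa cells, had 22.9 and 18.8 RPM in Foxo3dNES Tg libraries and 4.95 and 5.83 RPM in WT libraries (log2 difference 1.77, SE 0.23, limma adjusted p = 0.0275). Inhbb, an activin subunit, had 2.33 and 1.61 RPM against 0 and 0.139 RPM. Amhr2, the receptor of AMH, had 69.5 and 111 RPM against 31.0 and 30.3 RPM (1.49, limma adjusted p = 0.0544), and neither it nor Amh itself (1.16, limma adjusted p = 0.178) was called.

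Of 16 stroma and theca markers 2 rose and 0 fell, beside 6.52% of all genes called higher. Their median was 0.93, with sums of 264 and 294 RPM in Foxo3dNES Tg libraries and 101 and 102 RPM in WT libraries. Vim, the intermediate filament vimentin, was the member called with the largest difference, with 149 RPM in each Foxo3dNES Tg library and 35.3 and 35.7 RPM in WT libraries (2.04, SE 0.45, limma adjusted p = 0.0367). The defining stromal markers showed no common direction: Pdgfra had 2.33 and 2.41 RPM in Foxo3dNES Tg libraries and 3.72 and 1.25 RPM in WT libraries, Dcn 0.547 and 6.19 RPM against 8.88 and 0.833 RPM, and Col1a1 5.61 and 6.19 RPM against 1.65 and 2.08 RPM. Of 7 endothelial and 4 blood markers limma called 0 in either direction (edgeR and DESeq2 0 as well), with Pecam1, an endothelial adhesion receptor, at 8.62 and 12.2 RPM against 9.29 and 14.7 RPM. The 11 endothelial markers summed to 26.7 and 25.3 RPM in Foxo3dNES Tg libraries and 25.6 and 24.2 RPM in WT libraries, and the 17 blood and immune markers, 6 of them at 0 in all 4 libraries, to 20.4 and 13.4 RPM against 9.50 and 31.2 RPM. The summed granulosa and stroma markers were thus higher in both Foxo3dNES Tg libraries, as were matrix, interferon and immediate early genes, although only 2 markers of each list were called, and their part in those results was not tested. Under the normoxia and hypoxia labels the granulosa medians were -0.05 (17 tested) and -0.14 (16 tested), beside 0.16 and 0.04 for all genes.

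**Figure D4:**
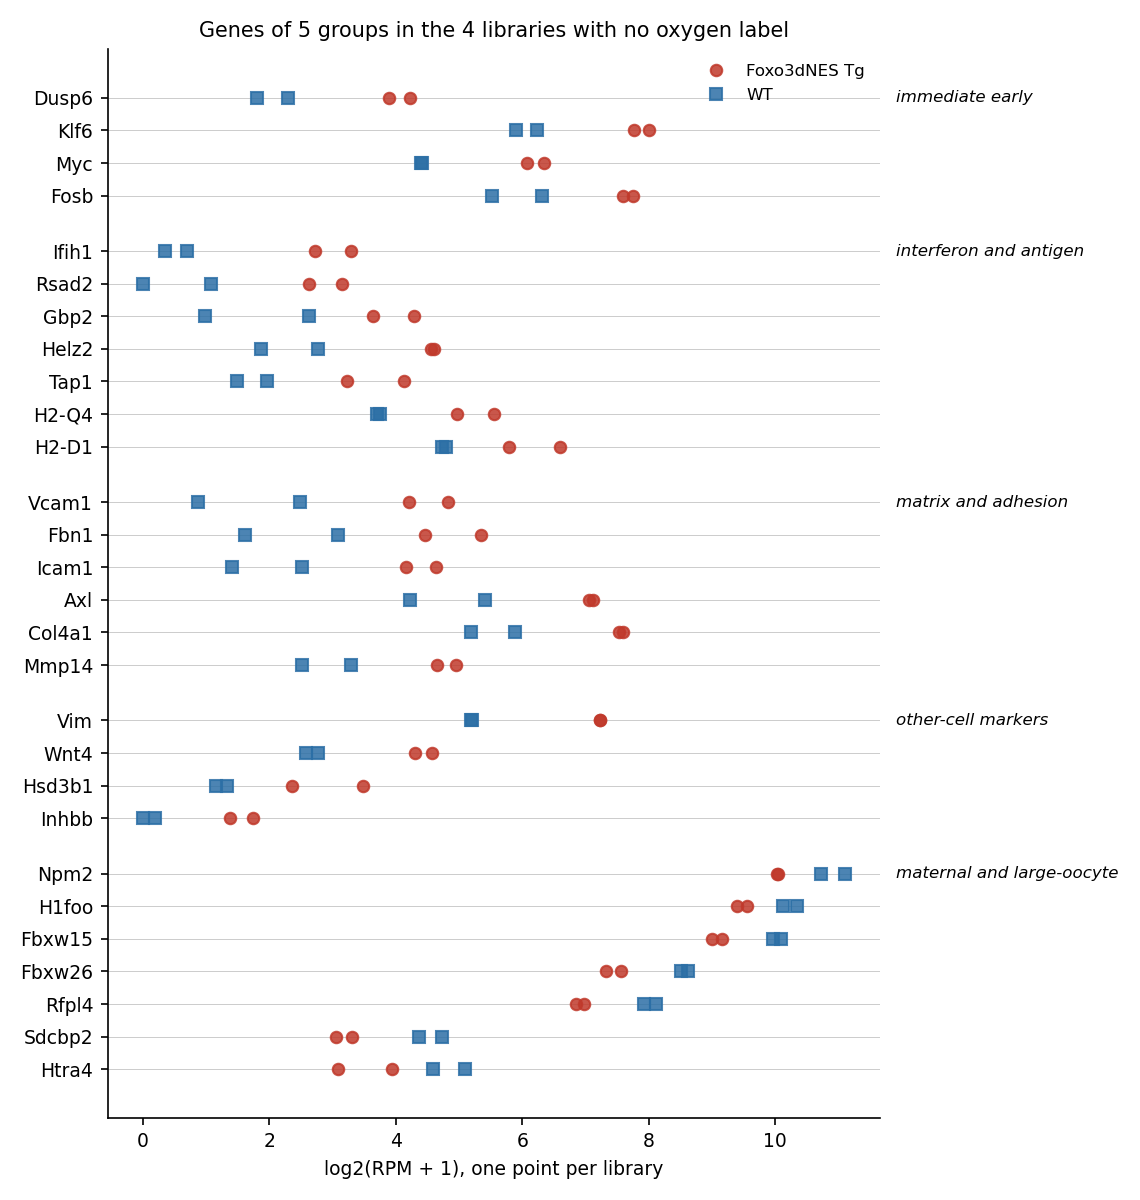
Log2(RPM + 1) of named genes of 5 groups in the 4 libraries, Foxo3dNES Tg as red circles and WT as blue squares. Circles lie to the right of squares for the immediate early, interferon, matrix and other-cell genes and to the left for maternal and large-oocyte genes; the WT libraries lie farther apart for Vcam1 and Fbn1 than for Vim.

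FOXO target genes, collected from work in several tissues, were shifted upward. Of 35 tested, 12 rose and 0 fell, beside 6.52% of all genes called higher. The median log2 difference was 0.68, beside 0.22 for all genes. Both Foxo3dNES Tg libraries lay above both WT libraries for 28, and for 41.5% of all genes. Trib1, a pseudokinase, had 15.1 and 16.51 RPM in Foxo3dNES Tg libraries and 3.72 and 3.05 RPM in WT libraries (log2 difference 1.94, SE 0.31, limma adjusted p = 0.0278). Klf2, a zinc-finger factor, had 54.9 and 86.6 RPM against 19.6 and 24.0 RPM (1.62), and Fbxo32, the ubiquitin ligase atrogin-1, 6.57 and 6.42 RPM against 2.48 and 0.833 RPM (1.57). Cdkn1a, the cell cycle inhibitor p21, had 59.9 and 47.7 RPM against 24.6 and 25.7 RPM (1.06, SE 0.18, limma adjusted p = 0.0284). Klf4 and Klf6 are on the immediate early list too. Other well-known targets were not called: Cat, catalase, had 32.8 and 40.7 RPM in Foxo3dNES Tg libraries and 28.7 and 18.46 RPM in WT libraries, Sod2 56.9 and 58.4 RPM against 82.0 and 52.3 RPM, and Cdkn1b, the inhibitor p27, 104 and 92.4 RPM against 58.6 and 77.2 RPM (0.54, limma adjusted p = 0.0614). The median of the list was 0.18 in normoxia and in hypoxia, beside 0.16 and 0.04 for all genes. The letters TGTTTAC of a forkhead site, on either strand, were found in 3 of 30 promoters of list members (10%) and in 836 of all 27025 (3.09%), and in 7.5% of interferon, 6.25% of immediate early and 6.25% of oocyte growth promoters.

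Of 30 genes of the PI3K and FOXO pathway, 2 rose and 0 fell, a share close to the 6.52% of all genes called higher. They were Irs2 and Foxo3, the gene for which the transgene is named. The median log2 difference was 0.48, beside 0.22 for all genes. Above 0 lay 28 of the 30, beside 67.6% of all genes, and DESeq2 called 3 higher and 0 lower. Irs2, an insulin receptor substrate, had 50.1 and 47.6 RPM in Foxo3dNES Tg libraries and 19.4 and 23.9 RPM in WT libraries (log2 difference 1.14, SE 0.30, limma adjusted p = 0.0474). Among the other FOXO genes, Foxo1 overlapped at 102 and 106 RPM in Foxo3dNES Tg libraries and 70.4 and 114 RPM in WT libraries, and Foxo4 had 18.3 and 19.8 RPM against 5.57 and 13.7 RPM (1.03, limma adjusted p = 0.0810). Kit, the receptor through which the pathway is switched on in oocytes, had 843 and 723 RPM against 607 and 660 RPM (0.30) and was not called.

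Cell death, arrest and recycling genes were shifted to differing degrees. Beside them, 6.52% of all genes were called higher, and the median of all genes was 0.22. Of 18 p53 targets 5 rose and 0 fell (median 0.52), among them Btg2, an anti-proliferative gene (1.55), and Plk2, a polo-like kinase (1.49). Of 15 BCL2 family genes 1 rose, a share close to the 6.52% of all genes, which was the survival factor Mcl1, with 196 and 203 RPM in Foxo3dNES Tg libraries and 119 and 135 RPM in WT libraries (log2 difference 0.65, SE 0.15, limma adjusted p = 0.0367). Of 33 autophagy and lysosome genes 4 rose and 0 fell (median 0.30), among them Gabarapl1, an ATG8 protein (0.90), Lamp2, a lysosome membrane protein (0.74), and Sqstm1, the receptor p62 (0.72). Of 32 proliferation genes limma called 0, with a median of -0.02, while DESeq2 called 1 higher and 2 lower. In the BCL2 family DESeq2 called 1 higher and 1 lower, and among autophagy and lysosome genes 3 higher and 1 lower.

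Of 44 targets of HIF, the oxygen-sensing factor, 5 rose and 0 fell, beside 6.52% of all genes called higher. A log2 difference above 0 was found for 36, and for 67.6% of all genes. The median was 0.42, beside 0.22 for all genes. DESeq2 called 5 HIF targets higher and 2 lower, and among the glycolysis genes below 2 higher and 1 lower. Hk1, a hexokinase, had 20.8 and 16.51 RPM in Foxo3dNES Tg libraries and 4.75 and 8.75 RPM in WT libraries (log2 difference 1.38, SE 0.25, limma adjusted p = 0.0325), and Ndrg1 had 19.8 and 21.4 RPM against 7.64 and 11.8 RPM (1.04). Vegfa, the vascular growth factor, had 15.6 and 17.4 RPM against 5.57 and 8.33 RPM (1.16, limma adjusted p = 0.0980), Slc2a1, a glucose carrier, 26.1 and 25.5 RPM against 16.1 and 22.8 RPM (0.41), and Bnip3, a mitophagy receptor, 39.6 and 39.8 RPM against 59.9 and 36.7 RPM (-0.24). These 3 were not called. Of 20 glycolysis genes 3 rose and 0 fell, beside the same 6.52% of all genes, and 18 lay above 0 (median 0.33). The sum over the list was lower, at 8062 and 8235 RPM in Foxo3dNES Tg libraries and 12713 and 9739 RPM in WT libraries.

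For ribosome and respiratory chain genes the sign of the median depended on which WT library was used. Of 75 nuclear-encoded respiratory chain genes limma called 0, with a median of -0.28, and of 79 cytosolic ribosome genes 0, with a median of -0.01 (edgeR and DESeq2 0 as well for both lists). Ribosome genes summed to 43264 and 48603 RPM in Foxo3dNES Tg libraries, between the 62347 and 33765 RPM of the WT libraries, and the median of the list was 0.45 without WT library 1 and -0.47 without WT library 2. Respiratory chain genes summed to 10948 and 11314 RPM in Foxo3dNES Tg libraries and to 17356 and 10203 RPM in WT libraries, and their median was 0.12 without WT library 1 and -0.73 without WT library 2.

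Smaller lists had calls at shares not far from the 6.52% of all genes called higher. Of 14 DNA methylation genes 1 rose, Tet2, a methylcytosine oxidase, with 23.5 and 18.9 RPM in Foxo3dNES Tg libraries and 9.29 and 8.47 RPM in WT libraries (log2 difference 1.16, SE 0.26, limma adjusted p = 0.0365). The 22 cholesterol genes had a median of 0.24. Of 20 genes on the transposon defence list 2 rose, Mov10l1, a piRNA helicase (0.80), and Ctsa, the lysosomal enzyme cathepsin A (0.77). Ctsa was counted on that list although its product is lysosomal, so its rise may not belong to transposon defence. Of 28 TGF-beta and BMP genes 3 rose, including the ligand Tgfb1, with 7.94 and 6.19 RPM in Foxo3dNES Tg libraries and 1.03 and 1.25 RPM in WT libraries (1.91, SE 0.27, limma adjusted p = 0.0275), and the inhibitor Smad7 (1.51). Of 27 stress-response genes 2 rose, the phosphatase subunit Ppp1r15a (0.99) and asparagine synthetase Asns (0.86). Of 14 gap junction and adhesion genes limma called 0 (DESeq2 2 higher and 2 lower), with the oocyte connexin Gja4 at 304 and 300 RPM against 381 and 458 RPM (-0.47). Limma called no member of these lists lower, while DESeq2 called between 1 and 2 lower in each of them.

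The libraries with an oxygen word gave a separate view of the same genes, since the 3 comparisons share no library, although they share 1 fit. Whether they share clones of the stem cells is not given in the sources used here. Of the genes called higher here and tested in normoxia, 673 of 838 had a log2 difference above 0 (80.3%, beside 62.5% of all genes), and in hypoxia 617 of 740 (83.4%, beside 60.8%). Of the genes called lower, 80 of 84 were below 0 in normoxia (95.2%, beside 37.5%) and 74 of 78 in hypoxia (94.9%, beside 39.2%). The sizes were smaller: the genes called higher had median log2 differences of 0.36 in normoxia and 0.15 in hypoxia, against 1.23 here, where they were picked for their size. Across genes the log2 differences correlated at r = 0.50 with normoxia (13482 genes) and r = 0.41 with hypoxia (13001 genes), a description over genes that share libraries. Limma called 1 gene in each labelled comparison, Scx (0.00731% and 0.00757% of the genes tested).

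The median of all genes was 0.22 here, 0.16 in normoxia and 0.04 in hypoxia. That of the large-oocyte list was -0.28 here, -0.14 in normoxia and -0.20 in hypoxia, and 546 of its 1434 genes tested in normoxia and 128 of 1369 in hypoxia lay above 0. Among its named genes, Grm2 had log2 differences of -1.14 here, -1.14 in normoxia and -0.68 in hypoxia, and Sdcbp2 -1.37, -1.09 and -0.43. The median of the oocyte growth list was -0.67 here, -0.52 in normoxia and -0.31 in hypoxia. For the small-oocyte list the medians were 0.53, 0.33 and 0.14. Above 0 lay 2258 of its 2960 genes tested in normoxia and 2655 of 3003 in hypoxia. Irs2 and Tet2 were near in size in normoxia (1.43 and 1.34) and lower in hypoxia (0.40 and 0.17). Some named interferon, immediate early and other-cell genes had smaller or negative log2 differences in both labelled comparisons. Klf6 was at -0.02 in normoxia and 0.31 in hypoxia, against 1.83 here, and Fosb at 0.60 and 0.29, against 1.75. Helz2 was at 0.22 and 0.40, against 2.27. H2-D1 was at -0.60 and -0.02, against 1.43, and Vim at -1.0 and -0.47, against 2.04. Of the 20 immediate early genes, 14 lay above 0 in normoxia and 19 in hypoxia, beside 62.5% and 60.8% of all genes. The extracellular matrix list had medians of 1.26 here, 0.68 in normoxia and 0.03 in hypoxia. Of its genes, 26 of 31 tested in normoxia and 17 of 30 in hypoxia lay above 0.

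The difference between the effects was tested for every gene. Limma called 0 of 14262 genes (0.0%) against normoxia, with 1132 at an unadjusted p under 0.05 and a lowest adjusted p of 0.0672, edgeR called 0 and DESeq2 101. Against hypoxia it called 0 of 14275 (0.0%), with 1313 at an unadjusted p under 0.05 and a lowest adjusted p of 0.396, edgeR called 0 and DESeq2 5. Without WT library 2 these counts were 100 and 243. The difference of effects from normoxia was 3.04 for Vim (limma adjusted p = 0.251), 2.31 for Wnt4 (limma adjusted p = 0.0788), 2.79 for Trib1 (limma adjusted p = 0.0995) and -0.32 for Foxo3 (limma adjusted p = 0.885). In the 12-library fit limma thus showed no gene whose effect differed from that under a labelled oxygen. The libraries here were the shallowest of the D21 set, and the part of depth in this result was not tested.

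**Figure D5:**
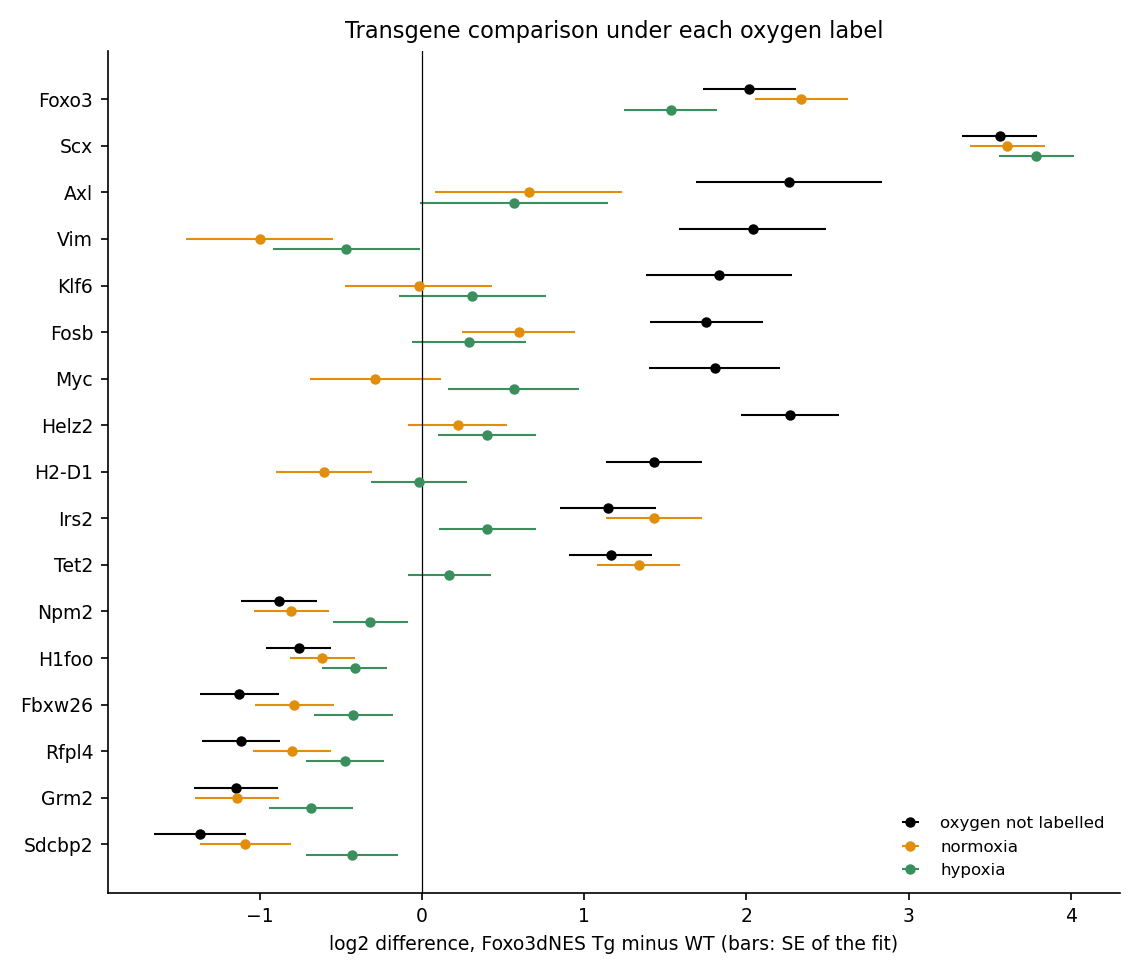
Log2 differences (Foxo3dNES Tg minus WT) of 17 named genes in the libraries with no oxygen label (black), in normoxia (orange) and in hypoxia (green), with the SE of the limma fit as bars. Scx lies between 3.56 and 3.79 under all labels, large-oocyte genes such as Grm2 lie below 0 under all, and Vim lies at 2.04 without an oxygen label and at -1.0 and -0.47 in normoxia and hypoxia.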

How the data were processed

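The values are RPM, reads per 1000000 reads of a library, deposited by the authors and not divided by transcript length. Per the labels' protocols, poly(A) RNA went into directional libraries with 12 PCR cycles. Per the submitters' processing notes, the tools included Bowtie2 2.0.13, featureCounts 1.5.1, TopHat2 and R 3.4.4, with build mm10. Their roles, the annotation and the strand setting are not given in the sources used here. Dividing each deposited value by the worth of 1 read gave a whole number, to within 0.01 read, for every gene and library.

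Genes with a mean of at least 1 RPM in either group were tested on log2(RPM + 1) with R 4.3.3 and limma 3.58.1 (trend option), two-sided, with 1 mean for each of the 6 D21 groups (12 libraries) and Benjamini-Hochberg adjustment over all genes tested at 0.05. On this scale differences of low genes are understated. A gene with a mean under 1 RPM in 1 group passed the filter only through the other group, which largely fixed its direction. SE is that of the fit. The effects under 2 oxygen labels were compared as a contrast in the same fit. With 2 libraries against 2, an exact permutation test of 1 value cannot go below p = 0.333. The recovered reads were tested with DESeq2 1.42.0 and with edgeR 4.0.16 (TMM, quasi-likelihood test). Other settings were the pseudocount, the filter, rescaling, the libraries fitted and a replicate block. Floors of 3 reads cover counting error only, since reads amplified by PCR and not marked by molecule can be copies.

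The comparison, gene lists and settings were chosen with earlier results of these data known. Genes were named by a rule: Foxo3, a panel, the 12 largest rises and falls among called genes with non-overlapping groups and a higher mean of at least 20 RPM (predicted genes passed over), and up to 4 called members of each list, or 2 highly expressed ones where none was called (6 for the oocyte-size lists). Other members were named after their values were seen, to show members that did not follow their list or carry a printed promoter. Some members of the lists are not reported here. Positions and promoters are from RefSeq (GRCm38.p6). Genes that overlap another gene may share reads with it: Npm2 with Xpo7 on the same strand, and, on the other strand, Scx with Bop1, Dnd1 with Wdr55, Sqstm1 with Mrnip, Tap1 with Psmb9, Col4a1 with Col4a2 and Ppp1r15a with Tulp2.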

Additional observations from a re-analysis of the deposited data

How the results depend on the processing

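The 1004 calls became 330 with a pseudocount of 0.1, 1 with edgeR, 1616 with DESeq2 and 0 on the 4 libraries alone, and 2 to 3206 when 1 of the 4 libraries was left out. In fits chosen after seeing the data there were 3285 calls without the second WT normoxia library and 2 with unlabelled and normoxia libraries only. With a pseudocount of 5 there were 1431, with no filter 817, with a filter of 5 RPM 717 and with rescaling 978. The replicate block gave 1050 calls, 981 higher and 69 lower. Same-numbered libraries did not deviate together (r = -0.0054 over 13474 genes). With 2 libraries per group this does not settle whether the numbers pair them.

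Foxo3 kept its sign in every setting. It was not called by edgeR (log2 difference 1.85), on the 4 libraries alone (2.02, limma adjusted p = 0.0716) or with unlabelled and normoxia libraries only (2.02, limma adjusted p = 0.133), and it ranged between 1.70 and 2.34 with 1 library left out.

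Genes whose effect differed from that in normoxia numbered 20 with a pseudocount of 5, 101 with DESeq2, 1 on the compared groups alone and 0 to 100 with 1 library left out. From that in hypoxia they numbered 5 with DESeq2 and 0 to 243 with 1 library left out. The small-oocyte list of 3054 genes held 1857 with a pseudocount of 5 and 1630 after rescaling, and the large-oocyte list of 1484 held 2323 after rescaling and 2392 with edgeR, settings chosen after seeing the data. For these changes the cause was not tested. No gene named as called changed sign in any setting run, while calls of named genes were lost in 603 instances and gained in 33, and 129 of the list medians moved against 336 that did not. The medians of the DNA methylation, transposon defence, germ cell identity, meiotic, primordial germ cell, proliferation, ribosome, respiratory chain, endothelial and blood lists, between -0.28 and 0.21, changed sign in at least 1 setting. With 1 library left out, a group was reduced to 1 library, which is assumed to vary like the others. Depths of 4843643 to 8719895 reads limit the genes under 5 RPM, which include 158 of those called higher.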
